A study of Mus musculus with 60 samples.

Results

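The comparison described here is that of a high-fat diet (HFD) with chow in the triceps muscle of mice that did not run. Its members are 10 of the 60 libraries of the data set: 5 from sedentary mice on HFD and 5 from sedentary mice on chow, chosen by the tissue and animal codes in the sample titles. The mice were of the strain C57BL/6JN and 12 weeks old, per the labels. Chow supplied 10% of energy from fat and HFD 60%, eaten freely for 6 weeks, and the sedentary mice had no running period in the last 3 of those weeks. In all groups food was withheld for 6 hours, and any wheel was locked for 24 hours, before the tissue was taken. RNA was read by 3′ digital gene expression sequencing, in which reads come from the 3′ end of each transcript. The other triceps libraries, 10 from mice with a running wheel on the same diets, entered the same fit and gave a second diet comparison. The same 20 mice also gave subcutaneous white fat (scWAT) and visceral white fat (vWAT). Each library of a group came from a separate animal, and the labels name no mutation, transgene or drug.

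Skeletal muscle burns fatty acids and glucose and shifts between them with their supply. Fatty acids enter the fibre with the help of Cd36 and Lpl, are carried by Fabp3, pass the mitochondrial membrane through the carnitine shuttle (Cpt1b) and are broken down by beta-oxidation. Free fatty acids also activate PPAR receptors, whose known targets in muscle include Pdk4, a kinase that inhibits pyruvate dehydrogenase, and the uncoupling protein Ucp3. Mouse triceps is mostly made of fast fibres, which contain the myosins Myh4 (type IIb) and Myh1 (type IIx). Slow fibres, marked by Myh7, are few in this muscle.

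Totals in the 10 sedentary libraries ranged from 651030 to 728549 estimated counts, with a median of 708198, so a count of 0 allows up to 4.12 to 4.61 CPM (counts per 1e+06 counts of the library), for counting error only. The labelled tissue was borne out by its markers in every mouse: Ckm, the muscle creatine kinase, lay between 8490 and 12774 CPM, and Tnnt3, the fast troponin T, between 13946 and 20395 CPM. Reads of organs that were not sampled followed the library codes in the column names. The first run of consecutive codes held chow replicates 1, 2 and 3 and 2 trained chow mice, and its 5 libraries held 188 to 234 reads of intestinal marker genes against at most 4 in the other 15 triceps libraries. The third run held HFD replicate 5 and 2 trained HFD mice, with 180 to 210 reads of brain marker genes against at most 67 elsewhere. Only the second run held both diets, with chow replicates 4 and 5 and HFD replicates 1 to 4 of the sedentary mice. Run and diet can therefore be told apart only through these 6 mice and their trained counterparts. Values within that run are given for some of the genes with the lowest p. They are also given for the insulin signalling, slow-fibre, extracellular matrix and adipocyte lists and the mitochondrial class, but not for every list that leaned in 1 direction.

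No gene passed the test for diet in sedentary triceps. Of 4410 genes tested with edgeR's quasi-likelihood test, 0 had an adjusted p under 0.05 (0%), and DESeq2 and limma voom also called 0. At an unadjusted p under 0.05 there were 198 genes (4.49%), 81 higher on HFD (1.84%) and 117 lower (2.65%); DESeq2 gave 234 and limma voom 214. Values of both diets were fully separated in 35 genes (0.794%). The sign of the change was split evenly on the scale used, with 2177 genes positive and 2233 negative (50.6%), whereas scaling to total counts alone gave 2744 and 1666, a shift of 0.07 on the log2 scale.

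The gene with the lowest p was Crip1, a small LIM-domain protein (chr12:113146316-113153879, mm10). Its level was 140, 170, 118, 95.2 and 87.1 CPM in the chow mice and 71.3, 59.7, 59.6, 86.8 and 85.2 CPM in the HFD mice. The groups did not overlap, but the lowest chow mouse stood next to the highest HFD mouse. Its log2 fold change, HFD minus chow, was −0.82 ± 0.19 (SE, n = 5 per diet; edgeR adjusted p = 0.353), and −0.45 within the run that held both diets. Rbm3, a cold-inducible RNA-binding protein, was at 69.0 ± 5.78 CPM on chow and 45.1 ± 12.6 on HFD (SD, n = 5 each). Its log2 fold change was −0.69 ± 0.18 (edgeR adjusted p = 0.434), and −0.67 within that run. Igfbp5, an insulin-like growth factor binding protein, was at 71.4 ± 19.6 CPM on chow and 120.1 ± 31.3 on HFD, a log2 fold change of 0.68 ± 0.17 (edgeR adjusted p = 0.434), and 0.60 within that run. None of these 3 genes belongs to a fuel, fibre or mitochondrial list.

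Since no gene was called, the width of the intervals tells how large a diet effect these mice leave possible. For each gene the bound of its 95% interval that lies farther from 0 is given here as its limit. Genes were called well expressed at a mean of at least 100 CPM over the 10 mice, which held for 816 genes, and the lists for fuel use, fibre type and mitochondria together held 216 of them. The median limit of these 216 was 0.35 on the log2 scale, a 1.28-fold change. The interval lay within ±1 (a 2-fold change) for 209 of 216, or 96.8%, against 98% of all 816 well expressed genes. It lay within ±0.5 (1.41-fold) for 173 of 216, or 80.1%, against 82.6% of the 816. The classes lay on both sides of that share, with 62.2% of the fibre, 68.3% of the fuel and 92.3% of the mitochondrial members within ±0.5. The exceptions beyond ±1 were Scd1, Ldhb, Myh2, Fabp3, Actn2, Lpl and Myh1. Precision improved with level up to about 200 CPM and not beyond: the median limit was 0.48 at 50 to 100 CPM, 0.40 at 100 to 200, 0.33 at 200 to 500 and 0.35 at 1000 or more. These intervals hold gene by gene; widened to cover all 216 genes at once, their median limit was 0.62 and 8.33% lay within ±0.5. Within the run that held both diets, the comparison was of 2 chow and 4 HFD sedentary mice. That fit also held 3 trained mice of each diet, whose spread entered the intervals. Its median limits were 0.51 for fuel, 0.53 for fibre and 0.39 for mitochondrial genes.

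**Figure D1:**
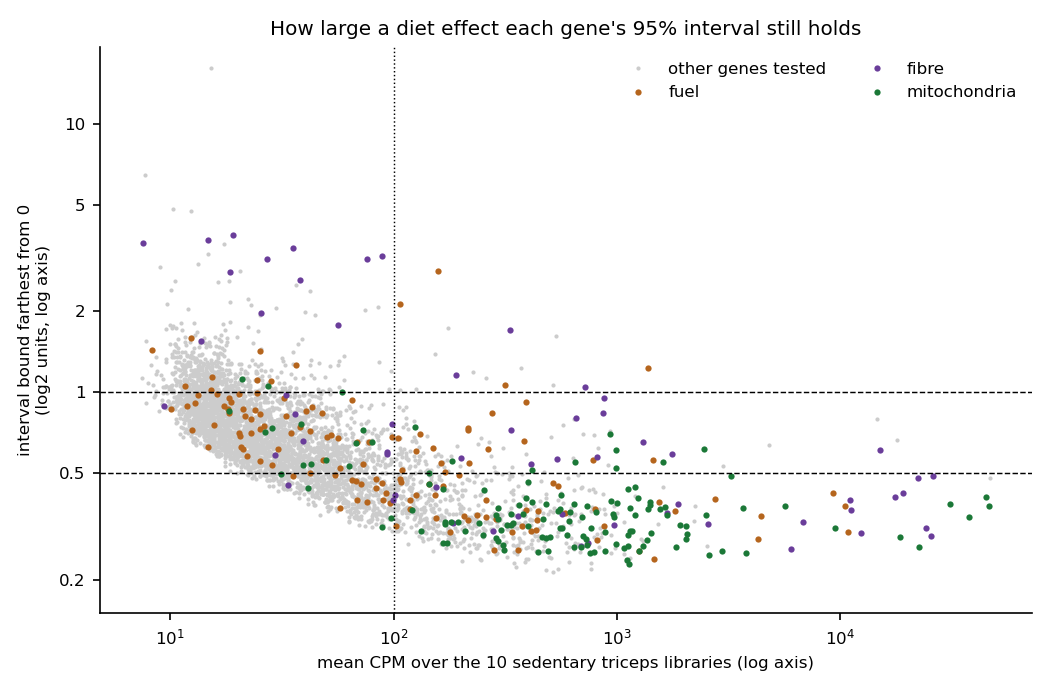
Each point is a tested gene; the x axis is its mean CPM over the 10 sedentary triceps libraries (log axis, dotted line at 100 CPM) and the y axis the bound of its 95% interval for diet that lies farther from 0, in log2 units (log axis, dashed lines at 0.5 and 1). Genes of the mitochondrial lists (green) at 100 CPM or more all lie under 1, while Scd1 has the highest limit of any well expressed gene, 2.84.

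In the fuel lists, 189 genes were looked for, 136 were tested and none was called. At an unadjusted p under 0.05, 3 were higher (2.21%, against 1.84% of all genes) and 5 lower (3.68%, against 2.65%). No member had separated groups, which 0.794% of all genes had. Of the 63 well expressed members, 43 had an interval within ±0.5 and 59 within ±1, with a median limit of 0.40 (1.32-fold). Among PPAR targets 9 of 11 tested members were negative and 2 positive, and 2 were lower at an unadjusted p under 0.05. Glycolysis had 11 negative and 3 positive, and branched-chain amino acid breakdown 13 and 5. Outside the fuel lists, ribosomal protein genes had 68 negative and 10 positive, where 50.6% of all genes were negative.

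Pdk4, the PPAR target that inhibits pyruvate dehydrogenase, was at 717, 743, 931, 951 and 680 CPM on chow and at 927, 556, 650, 762 and 926 CPM on HFD. The diets overlapped, though HFD replicates 2 and 3 lay below all chow mice. The log2 fold change was −0.14 with an interval from −0.56 to 0.28. The fatty acid transporter Cd36 lay between 197 and 357 CPM on chow and between 176 and 406 CPM on HFD, with a log2 fold change of −0.03 (−0.62 to 0.55). Fabp3, the fatty acid carrier of muscle and heart, was at 862 to 1509 CPM on chow, at 924, 930 and 1202 CPM in HFD replicates 1 to 3 and at 2611 and 2384 CPM in HFD replicates 4 and 5. These 2 mice set its change of 0.44, and its interval (−0.34 to 1.23) is among the widest of the fuel genes. Lpl, which frees fatty acids from lipoproteins, gave −0.39 (−1.06 to 0.27), and 0.01 within the run that held both diets. Among oxidation enzymes, Acadm, the medium-chain dehydrogenase, gave 0.25 (−0.17 to 0.66), and Etfb, an electron carrier of the same pathway, −0.01 (−0.32 to 0.30). The list of mitochondrial fatty acid oxidation had 15 positive and 8 negative changes among 23 tested members, with a median of 0.03 against −0.0038 for all genes. Cpt1b and Ucp3, both under 100 CPM, gave −0.26 (−0.66 to 0.14) and −0.43 (−0.84 to −0.02). The level of Ucp3 was 42.3 to 69.1 CPM on chow and 29.8 to 54.6 CPM on HFD, and its unadjusted p of 0.040 became 0.975 after edgeR's adjustment. Plin5, a lipid droplet protein of oxidative muscle, was measured at 3.07 to 7.02 CPM on chow and 4.26 to 16.5 CPM on HFD and did not pass the count filter.

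For glucose, the insulin-responsive transporter Slc2a4 was at 67.1, 97.5, 115, 167 and 105 CPM on chow and at 108, 93.8, 119, 109 and 96.6 CPM on HFD. The chow mice spread wider than the HFD mice, and all HFD values lay inside the chow range; the log2 fold change was −0.13 (−0.46 to 0.21). Hexokinase 2 (Hk2), which traps glucose in the fibre, gave −0.34 (−0.67 to −0.01; unadjusted p = 0.045, edgeR adjusted p = 0.975). The narrowest fuel interval was that of Mpc1, a subunit of the mitochondrial pyruvate carrier, at 0.02 (−0.21 to 0.24), a limit of 1.18-fold. Glycolysis was measured closely: Gapdh gave −0.19 (−0.42 to 0.04), Aldoa −0.04 (−0.30 to 0.22) and Ldha −0.03 (−0.28 to 0.21), and 9 of 10 well expressed members lay within ±0.5. The muscle glycogen phosphorylase Pygm gave 0.09 (−0.19 to 0.36). The creatine kinase Ckm gave −0.14 (−0.38 to 0.10).

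The lowest p of a fuel gene was that of Ampd1, the muscle AMP deaminase (chr3:103074014-103099720). Chow mice had 173, 191, 144, 206 and 163 CPM and HFD mice 279, 327, 277, 185 and 206 CPM, so HFD replicates 4 and 5 lay within or at the edge of the chow range. Its log2 fold change was 0.47 ± 0.13 (edgeR adjusted p = 0.602) and 0.47 within the run that held both diets. Prkaa2, a catalytic subunit of AMP-activated kinase, gave 0.39 ± 0.15 (edgeR adjusted p = 0.975) and 0.30 within that run. It belongs to the insulin signalling list, in which 11 of 14 tested members were positive with a median of 0.28. Of the 14, 1 had an unadjusted p under 0.05, which 4.49% of all genes had. Within that run 10 of 14 were positive with a median of 0.31.

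Scd1, which makes monounsaturated fatty acids, had the largest change of a well expressed gene and the widest interval (chr19:44394455-44407879). It was at 238, 194, 470, 252 and 50.5 CPM on chow and at 130, 66.8, 30.5, 82.7 and 68.2 CPM on HFD. Chow replicate 5 lay among the HFD mice. The log2 fold change was −1.74 ± 0.52, from −2.84 to −0.65 (edgeR adjusted p = 0.776), and −0.998 within the run that held both diets. Adipocytes also express Scd1: the summed level of the adipocyte list without Car3, an enzyme that muscle also makes, was 352 to 962 CPM on chow, highest in replicate 3 and lowest in replicate 5 as Scd1 was, and 292 to 572 CPM on HFD. The part of fat cells in the Scd1 values was not tested, and in whole muscle fewer cells of a type and less RNA per cell cannot be told apart. Most enzymes of fatty acid synthesis could not be assessed, since 3 of 14 members were tested. Plin2, a lipid droplet coat protein, was at 43.7, 37.1, 31.8, 20.0 and 28.1 CPM on chow and at 12.1, 19.9, 16.6, 16.5 and 25.6 CPM on HFD. Its 3 highest values were those of the first run; the log2 fold change was −0.89 ± 0.26 (edgeR adjusted p = 0.634) and −0.62 within the run that held both diets.

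**Figure D2:**
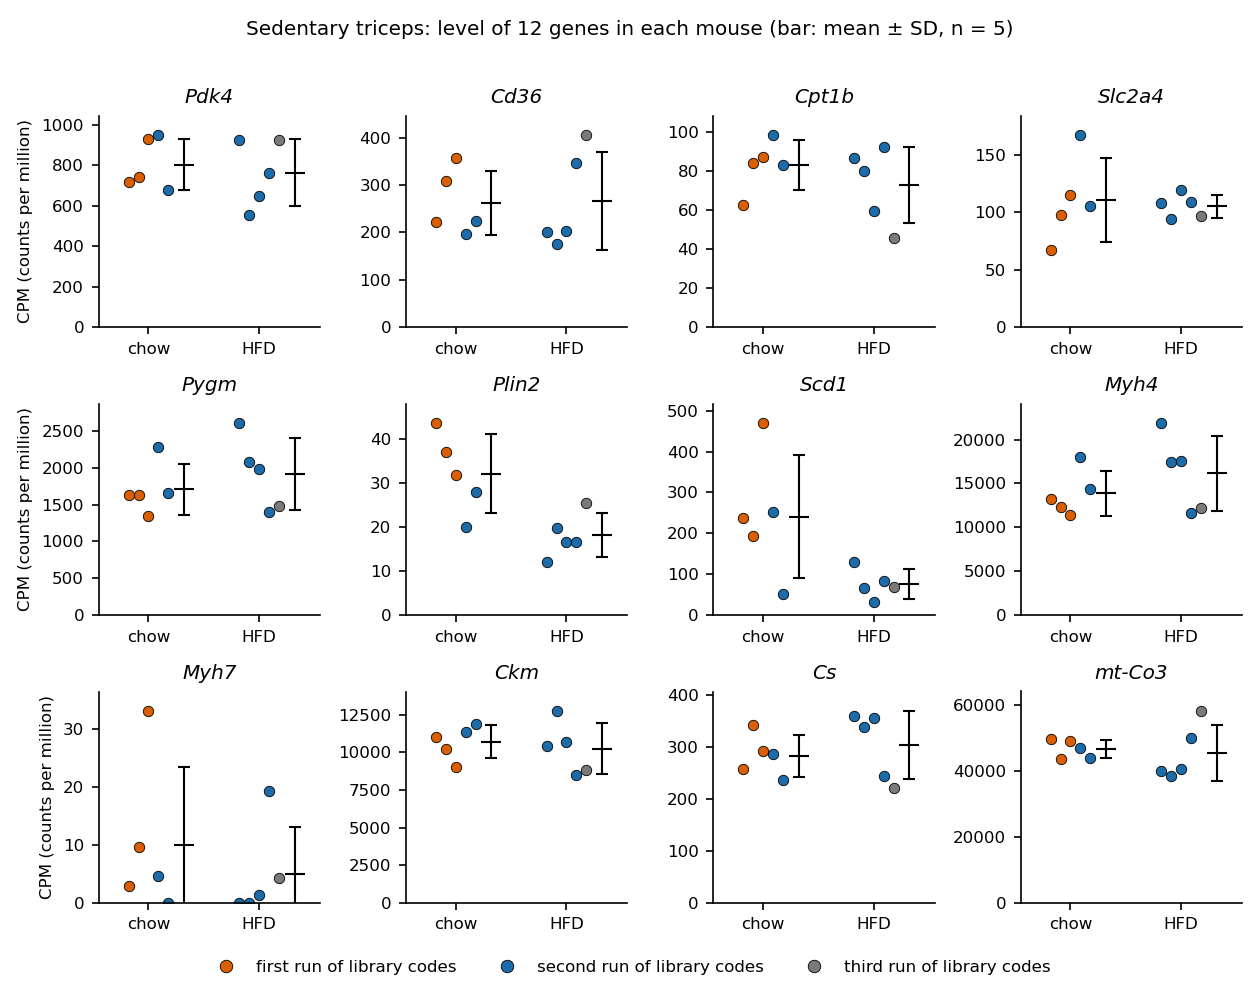
Level in CPM (y axis, from 0) of 12 genes in each of the 5 chow and 5 HFD sedentary mice; colour gives the run of library codes and the black bar the mean ± SD (cut at 0 for Myh7). Diets overlap in every panel; the lowest chow value of Scd1, 50.5 CPM, lies among the HFD mice.

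The fibre lists held 63 genes, of which 59 were tested and none called; 2 were higher (3.39%, against 1.84% of all genes) and 2 lower (3.39%, against 2.65%) at an unadjusted p under 0.05. No member had separated groups, which 0.794% of all genes had. Of the 37 well expressed members, 23 had an interval within ±0.5 and 34 within ±1, with a median limit of 0.42 (1.33-fold). In the fast-fibre list all 16 well expressed members lay within ±1 and 11 within ±0.5, with a median limit of 0.40 against 0.36 for all 816 well expressed genes. Myh4, the type IIb myosin, was at 13242, 12300, 11360, 18033 and 14355 CPM on chow and at 21925, 17453, 17547, 11632 and 12236 CPM on HFD. HFD replicates 1 to 3 were at the upper end and replicates 4 and 5 at the lower end of all mice, and the log2 fold change was 0.14 (−0.32 to 0.61). Parvalbumin (Pvalb), the calcium buffer of fast fibres, gave −0.11 (−0.40 to 0.18), and fast troponin C (Tnnc2) −0.05 (−0.29 to 0.18). Among sarcomere genes shared by fast and slow fibres, nebulin (Neb), which sets thin-filament length, had the narrowest interval of the class at −0.04 (−0.26 to 0.18). Titin (Ttn) gave −0.06 (−0.30 to 0.17). Tropomyosin 2 (Tpm2) gave −0.34 ± 0.12 (edgeR adjusted p = 0.820) and −0.15 within the run that held both diets.

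Slow-fibre genes were the least settled. All 12 tested members were lower on HFD with a median log2 fold change of −1.04, yet none had an unadjusted p under 0.05. Myl3, a slow and cardiac myosin light chain, was at 46.6, 126, 354, 61.4 and 9.83 CPM on chow and at 19.7, 7.11, 15.2, 160 and 86.6 CPM on HFD. Chow replicate 3 was the highest and HFD replicate 2 the lowest, and 2 HFD mice lay above 3 chow mice. Its change was −1.09 ± 1.01, an interval from −3.23 to 1.05. Myh7 followed the same mice, from 0 CPM in chow replicate 5 to 33.2 CPM in chow replicate 3 and from 0 CPM in HFD replicates 1 and 2 to 19.3 CPM in HFD replicate 4. The summed level of the slow list was 850, 1285, 2519, 791 and 684 CPM on chow and 652, 442, 759, 1634 and 1066 CPM on HFD. Within the run that held both diets the list's median was 0.17, with 7 of 13 tested members positive, so the direction turned; with the run as a factor it was −0.76. The fast myosins Myh1 and Myh2 were also loosely bounded, with Myh1 at −0.34 (−1.05 to 0.36) and Myh2 at −0.53 (−1.70 to 0.65). Myosin genes are close paralogs, and how the estimated counts divided reads among them was not tested.

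Mitochondrial genes were the most closely bounded class. Of 146 genes looked for, 135 were tested and none was called. At an unadjusted p under 0.05, 0 were higher (0%, against 1.84% of all genes) and 2 lower (1.48%, against 2.65%). All 117 well expressed members had an interval within ±1, and 108 lay within ±0.5, with a median limit of 0.33 (1.26-fold). The widest belonged to Ogdh, a subunit of the oxoglutarate dehydrogenase complex, at 0.32 (−0.09 to 0.74). Citrate synthase (Cs), the entry enzyme of the tricarboxylic acid cycle, was at 258, 343, 292, 287 and 236 CPM on chow and at 359, 340, 356, 244 and 222 CPM on HFD. HFD mice were both the highest and the lowest, and the log2 fold change was 0.03 (−0.22 to 0.28). Vdac1, the channel of the outer membrane, had the narrowest interval, −0.02 (−0.23 to 0.18), a limit of 1.17-fold. In complex I, 36 of 37 nuclear members lay within ±0.5; Ndufa4 gave −0.02 (−0.26 to 0.21). The coactivator Ppargc1a, under 100 CPM, gave −0.16 (−0.56 to 0.25).

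The 13 proteins encoded in mitochondrial DNA all had an interval within ±0.5. Together they made up 231195, 210200, 241167, 219455 and 215408 CPM in the chow mice and 193710, 191049, 198705, 254424 and 267183 CPM in the HFD mice. HFD replicates 1 to 3 were below and replicates 4 and 5 above all chow mice. mt-Co3 (chrM:8607-9390), a subunit of cytochrome c oxidase, gave −0.10 (−0.38 to 0.17) and mt-Cytb −0.10 (−0.41 to 0.21). Gm29216, a nuclear copy of mitochondrial sequence, held 14562 CPM on average, so the split of reads between it and the mitochondrial genes is uncertain. Across the class 107 of 135 changes were negative with a median of −0.07, but scaling to total counts gave 68 of 135 and a median of −0.0013, and within the run that held both diets 68 of 135 were negative.

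**Figure D3:**
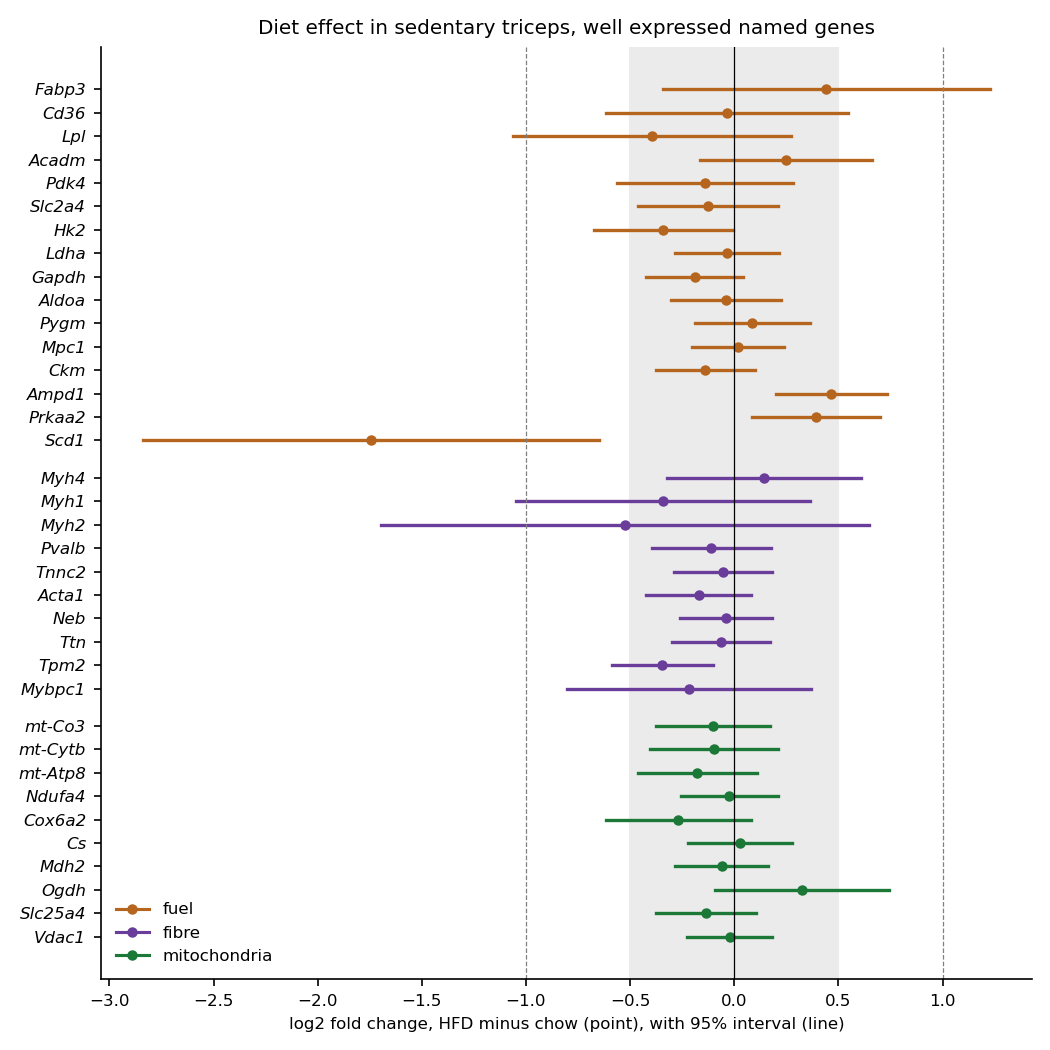
Log2 fold change (HFD minus chow, point) and 95% interval (line) of the well expressed named genes of the fuel, fibre and mitochondrial lists in sedentary triceps, n = 5 mice per diet; the grey band marks ±0.5 and the dashed lines ±1. The mitochondrial intervals stay within ±1, whereas those of Scd1 and Myh2 extend past −1.

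Outside these classes, extracellular matrix genes had 15 of 16 tested members negative with a median of −0.40, and 4 of 16 were lower at an unadjusted p under 0.05 against 2.65% of all genes. Col1a1, a chain of type I collagen, was at 104, 286, 59.5, 59.9 and 67.4 CPM on chow and at 47.0, 85.3, 45.7, 59.3 and 35.5 CPM on HFD, with its 2 highest values in first-run chow mice. None of these genes was called, and within the run that held both diets the list's median was −0.14 with 0 of 16 lower at an unadjusted p. The adipocyte list had 6 of 7 tested members negative and a median of −0.86. Retn, a hormone of fat cells, was at 42.3, 41.2 and 44.3 CPM in the 3 chow mice of the first run, at 12.3 and 4.21 CPM in the other 2 chow mice and at 4.16 to 18.2 CPM on HFD. With the run as a factor the adipocyte median was 0.40, and within the run that held both diets it was 0.20 over 5 tested members, so its direction turned. Macrophage markers summed to 114 to 179 CPM on chow and 74.8 to 147 CPM on HFD. Cd3e, Cd4 and Cd8a, markers of T lymphocytes, were at 0 in all 10 libraries. They are among the 4 members at 0 in the 12-member list of T, NK and B cell markers. That list summed to 1.40 to 10.2 CPM on chow and 1.39 to 6.89 CPM on HFD.

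**Figure D4:**
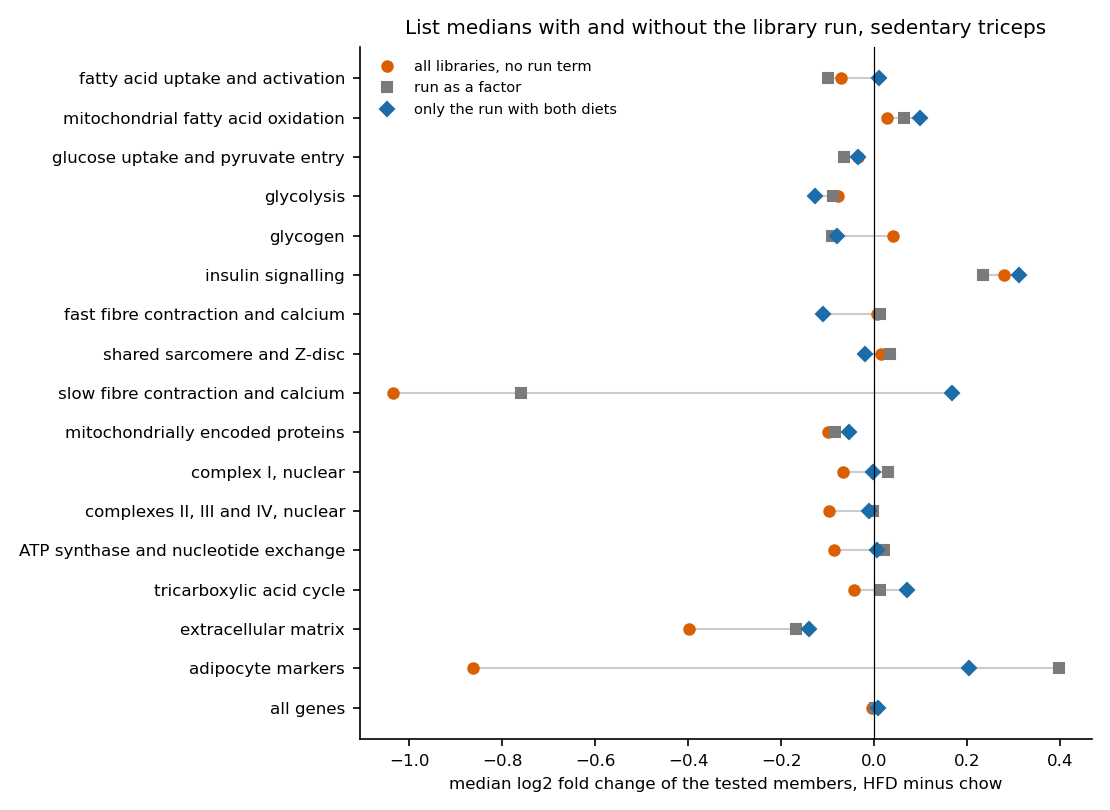
Median log2 fold change (HFD minus chow, x axis) of the tested members of each list in sedentary triceps, from the fit of all libraries (circle), with the library run as a factor (square) and within the run that held both diets (diamond). The slow-fibre median moves from −1.04 to 0.17 and the adipocyte median from −0.86 to 0.20, while the mitochondrial lists stay near 0.

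The diet comparison in the trained mice also called no gene: 0 of 4410 had an adjusted p under 0.05 with edgeR (0%), and 308 an unadjusted p under 0.05 (6.98%). The diet by training interaction likewise called 0 (0%), with 226 genes at an unadjusted p under 0.05 (5.12%). Ampd1 gave −0.12 in trained mice against 0.47 in sedentary mice, and Plin2 0.10 against −0.89. Scd1 gave −1.78 in trained mice, near its value in sedentary mice.

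The same 10 mice answered whether the diet effect in muscle differed from that in fat, tested on the joint counts with the mouse as a block. Genes whose diet effect differed numbered 102 of 6859 against vWAT (1.49%), 41 with the triceps effect above that in fat (0.598%) and 61 below (0.889%), and 62 of 6849 against scWAT (0.905%), 15 above (0.219%) and 47 below (0.686%). Genes of mitochondrial DNA differed from vWAT in 10 of 13 cases, all with the triceps effect above. In vWAT the 13 genes had a median log2 fold change of −1.04 and all 13 were called lower on HFD, against a median of −0.10 and no call in triceps. mt-Co3 changed by −1.04 ± 0.11 in vWAT, and its triceps effect was higher by 0.90 ± 0.20 (edgeR adjusted p = 0.0127). Against scWAT the median difference was similar at 0.92, but with a wider spread 1 of 13 was called, mt-Co2 at 1.11 ± 0.25 (edgeR adjusted p = 0.0288). The summed level of these 13 genes in vWAT was 80182 to 103052 CPM on chow and 45348 to 60243 CPM on HFD, without overlap. Summed macrophage markers also separated the diets in vWAT, at 1027 to 1401 CPM on chow and 1871 to 8719 CPM on HFD. The list of T, NK and B cell markers there summed to 49.7 to 95.2 CPM on chow and 96.8 to 184 CPM on HFD. Those ranges met almost at 1 point, with 61 reads in chow replicate 4 and 60 in HFD replicate 2. In scWAT the macrophage sums overlapped, at 465 to 1939 CPM on chow and 808 to 2171 CPM on HFD. Its T, NK and B cell markers summed to 66.4, 1591, 40.3, 934 and 536 CPM on chow and to 79.2 to 173 CPM on HFD. The fast-fibre list in scWAT summed to 251 to 21700 CPM on chow, highest in replicate 1. On HFD it summed to 434 to 53602 CPM, highest in replicate 4. The part of immune cells and of muscle RNA in the tissue differences was not tested.

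Heart marker reads stood out in 3 of the vWAT libraries, all on chow, which held 246 to 317 of them. The other 2 chow libraries held 6 and 9, and the 5 HFD libraries 16 to 31. These 3 are the mice whose triceps libraries lie in the first run. In the 6 mice of the triceps run that held both diets, the vWAT libraries held at most 31 heart reads. They held 50 to 80 intestinal reads on chow and 15 to 626 on HFD, and 3429 to 4020 liver reads on chow and 1719 to 8066 on HFD. In these 6 mice the median difference of the 13 genes was 0.89 against vWAT and positive in all 13, with 2 of 13 called. Against scWAT it was 1.03 with 0 of 13 called. Over all genes 16 and 29 were then called. Leaving out 1 mouse at a time gave 6 to 11 of 13 against vWAT, lowest without HFD replicate 4, and 46 to 153 genes in all, with 63 without chow replicate 1 and 46 without chow replicate 2.

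Of 133 fuel genes tested in both fits, 8 differed from vWAT (6.02%, against 1.81% of the 4306 genes tested in both), 7 with the triceps effect above and 1 below. Against scWAT 5 of 133 differed (3.76%, against 1.11% of 4324), all with the triceps effect above. No member of the fatty acid uptake, glycogen, branched-chain amino acid or insulin signalling lists passed against either depot. Mpc1, the pyruvate carrier subunit, was at 0.02 in triceps and −1.17 in vWAT, a difference of 1.11 ± 0.21 (edgeR adjusted p = 0.0030). Me1, which makes NADPH for fatty acid synthesis, was at 0.52 in triceps and −1.60 in vWAT (difference 2.02 ± 0.25). Acacb, the mitochondrial acetyl-CoA carboxylase, and Gpd2, the mitochondrial glycerol phosphate dehydrogenase, differed from both depots, with differences of 2.12 and 1.66 from vWAT and 2.62 and 2.06 from scWAT. Plin2 ran the other way, at −0.89 in triceps and 0.61 in vWAT, a difference of −1.48 ± 0.34 (edgeR adjusted p = 0.0183). For Scd1 the effect in triceps did not pass the test of difference from either depot, with −1.31 in vWAT and −1.58 in scWAT. Citrate synthase was at −0.63 in vWAT, and its difference of 0.63 ± 0.18 did not pass (edgeR adjusted p = 0.074). A further fit used only the 6 mice whose triceps libraries lie in the run that held both diets. In it 1 of 135 fuel genes differed from vWAT, against 16 of all 7723 genes tested. From scWAT 3 of 135 differed, against 29 of all 7726, but the scWAT libraries of these mice do not share 1 run. Me1 passed against both depots, with differences of 1.78 and 1.94. Mpc1 (0.80), Acacb (1.62), Gpd2 (1.46) and Plin2 (−1.16) did not pass against vWAT, and Acacb (2.09) and Gpd2 (1.99) passed against scWAT.

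**Figure D5:**
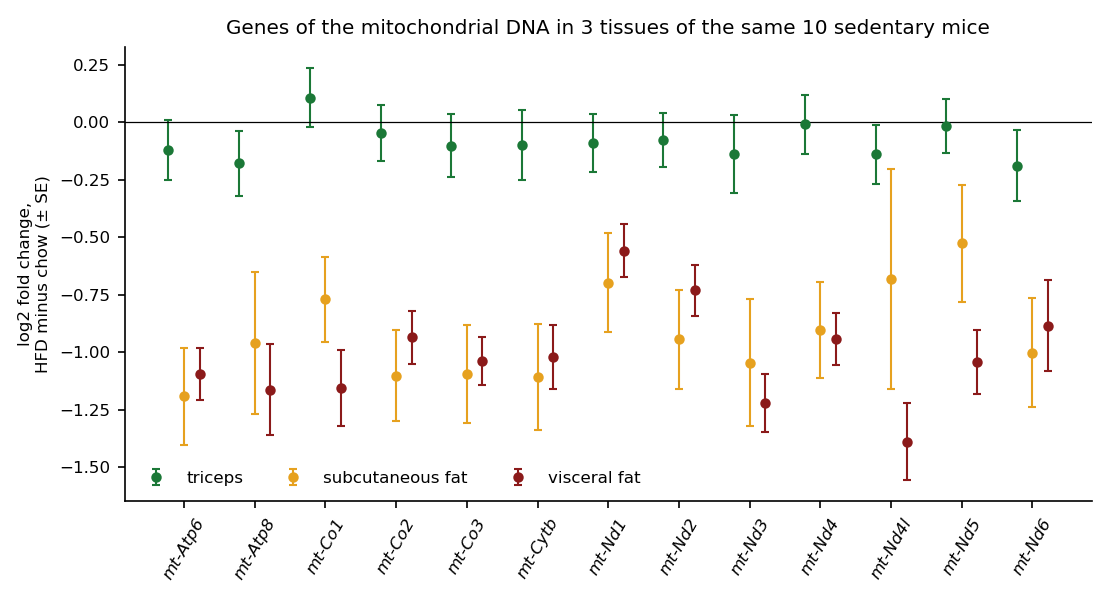
Log2 fold change (HFD minus chow, ± SE, y axis) of the 13 protein-coding genes of mitochondrial DNA in triceps, subcutaneous fat and visceral fat of the same 10 sedentary mice. The triceps values lie between −0.19 and 0.11, and every fat value lies below −0.5.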

How the data were processed

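The deposited table gave 1 estimated count column per library, made by the authors with Salmon 0.14.2 and build mm10 according to the submitters' processing notes; its values are whole numbers. It also held deposited log2 CPM columns, used only to check the unit. No source used here gives the strand setting, the annotation release or the use of molecular identifiers. cDNA of 12 wells was pooled, per the labels' protocols, and the runs described are blocks of 12 consecutive library codes whose boundaries were set where reads of other organs begin and end.

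The 20 triceps libraries were fitted with edgeR 4.0.16 in R 4.3.3 (TMM, filterByExpr by group, robust quasi-likelihood test), leaving 4410 of 54352 genes. Of these, p values were adjusted by Benjamini-Hochberg over all tested genes, and a gene was called below 0.05. Intervals are the log2 fold change ± the t quantile times a standard error computed from the fit; CPM values are on total counts. Tissue differences were fitted on joint counts with the mouse as a block. DESeq2 1.42.0 and limma 3.58.1 (voom) were alternatives. The scripts were tested on simulated data. All 40 gene lists and the members were chosen with earlier results of these data known. Named genes are a set watched whatever their test gave, per fuel, fibre and mitochondrial list the 2 with the highest level and the 1 with the lowest p, per class the narrowest and widest interval, and the 3 lowest p of all; Ldhb, Actn2, Tnnt3, Col1a1, Retn, Acacb, Gpd2, mt-Co2, Gm29216, Spink1, the lymphocyte markers and the intestinal genes were named after their values were seen. Positions are those of GENCODE vM21. Of the list symbols, 2 were not in the table. Replicate numbers name different mice on each diet: same-numbered mice deviated with correlations from −0.13 to 0.04.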

Additional observations from a re-analysis of the deposited data

Results flagged for a closer look

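Some values stood apart within their group of 5 mice, by a gap test that chance passes in about 5% of groups; it was applied to 154 groups of the named genes and marked 6 (3.9%). Myh7 was marked in chow replicate 3 at 33.2 CPM against at most 9.61 in the other chow mice, and in HFD replicate 4 at 19.3 CPM against at most 4.26. Fbxo32, a ubiquitin ligase of muscle atrophy, was at 440 CPM in HFD replicate 1 against 180 to 249 in the other HFD mice. Cox6a1 was at 11.1 CPM in HFD replicate 3 against 22.7 to 27.3. Prkaa2 was at 143 CPM in chow replicate 4 against 95.5 to 107. Tpm2 was at 1122 CPM in HFD replicate 5 against 1632 to 1834.

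The diet effect of 8 named genes differed between triceps and a fat depot by the test of the difference itself. Triceps minus scWAT gave −1.34 for Crip1 and 2.40 for Me1 on the log2 scale. Triceps minus vWAT gave −1.47 for Crip1, 2.02 for Me1, 1.11 for Mpc1, 0.97 for mt-Atp8, 0.90 for mt-Co3, 0.89 for mt-Cytb, −1.48 for Plin2 and −1.09 for Rbm3. Crip1 and Rbm3 had been named for their low p in the same triceps libraries. With only the 6 mice whose triceps libraries lie in the run that held both diets, Me1 passed against both depots. Mpc1 and Plin2 did not pass against vWAT in that fit, and 2 of the 13 genes of mitochondrial DNA did.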

How the results depend on the processing

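For the named genes, 1688 values under 22 alternatives included 2 calls: Crip1 (−0.82, edgeR adjusted p = 0.0025) and Igfbp5 (0.67, edgeR adjusted p = 0.0441) without a filter on low counts. Of these values, 126 in 34 genes changed sign, none of them called. Without the filter 24 genes were called, with 1080 at an unadjusted p under 0.05; most were intestinal genes such as Fabp6, Sis and Tff3, whose reads lie in first-run chow libraries. With a replicate block 1 gene was called, Spink1, at 0 in all HFD mice; the numbers do not pair the mice, and 0 of 5 correlated best with their own number. Leaving out 1 sedentary library at a time called 0 genes each time, with a lowest adjusted p between 0.0801, without chow replicate 4, and 0.739, without chow replicate 1. It put 95.4% to 98.1% of the well expressed members within ±1 and 74.1% to 81.0% within ±0.5, with a median limit from 0.35 to 0.41. Within the run that held both diets, 64.8% lay within ±0.5, with a median limit of 0.44. By class the share there was 44.4% for fuel, 43.2% for fibre and 82.9% for mitochondrial genes. Without the 4 sedentary libraries outside that run, 59.3% lay within ±0.5, with a median limit of 0.46. Intervals covering all members at once put 8.33% within ±0.5, with a median limit of 0.62. Without the mouse as a block, genes differing from vWAT numbered 70 and from scWAT 49, and 2 genes of mitochondrial DNA differed from scWAT. With only the 6 mice whose triceps libraries lie in the run that held both diets the counts were 16 and 29. Genes of mitochondrial DNA then numbered 2 and 0. Leaving out 1 mouse at a time gave 46 to 153 genes against vWAT and 47 to 77 against scWAT, and 6 to 11 and 0 to 2 genes of mitochondrial DNA. Changes in genes under about 25 CPM were bounded poorly, with a median limit of 0.85. The alternatives with 6 mice, the leave-one-mouse-out tissue fits and the fit without the 4 sedentary libraries outside the run that held both diets were chosen after seeing the data.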
